A study of Mus musculus with 8 samples.

Results

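The 10 mouse genes described here encode the coactivators YAP (Yap1) and TAZ (Wwtr1), the 4 TEAD transcription factors (Tead1 to Tead4), and 4 genes that respond to YAP or bind it (Ankrd1, Amotl1, Amotl2 and Myof). They were chosen by symbol, with earlier results of these data known. All 10 were found among the 54838 genes listed and passed the filter on low counts that left 14634 genes for testing. RNA-seq was done on 8 libraries of cultured 3H3 cells, a line from a liver tumour of a C57BL/6 mouse that lacked MC4R and was fed a high-fat diet, labelled as hepatocellular carcinoma cells with the HrasQ61L mutation. All 8 libraries carry a Trp53 knockout made with CRISPR/Cas9. One library is 3H3P, the knockout without added MYC. The other 7 are 3H3PM, the knockout with ectopic MYC, and are subclones 1, 2, 3, 6, 7, 8 and 9, isolated from tumours that the cells formed in nude mice. Added MYC, growth in a mouse and isolation as a subclone therefore came together and cannot be told apart in this comparison, and 3H3P has no replicate.

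YAP and TAZ have no DNA-binding domain of their own and act on genes by binding TEAD proteins, which recognise a short DNA motif. The Hippo kinases LATS1 and LATS2 phosphorylate YAP and TAZ and hold them in the cytoplasm, so activity is set to a large part at the protein level, which RNA does not show. Angiomotin proteins, which include the products of Amotl1 and Amotl2, bind YAP at cell junctions. In mouse liver the pathway limits organ size, and its loss or excess YAP leads to overgrowth and tumours.

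The TEAD motif is shown here in the promoters of members that hold it, because TEAD proteins bring YAP and TAZ to their target genes through this sequence. The motif searched was GGAATG, or CATTCC when read on the other strand. RefSeq promoter windows (GRCm38.p6, 250 bases before a transcription start) were at hand for 8 of the 10 genes, 11 windows in all, and not for Tead1 and Tead4. The motif was in 7 of these 11 windows, belonging to 5 genes, and in 12.6% of the 32851 windows of the whole table. The members were picked as genes of this pathway and some of their windows overlap, so the shares are a description. Positions count back from the start site, with -1 the base before it. The whole windows of Yap1 and Wwtr1 are printed first, 5′ to 3′ on the gene's strand with motifs in capitals. In the Yap1 window (chr9:8004597-8004846, minus strand) the motif starts at -141, and CACGTG, the E-box that MYC and its partner MAX recognise, starts at -163. CACGTG was in 6.02% of all windows and in 1 member window, that of Yap1. In the Wwtr1 window (chr3:57575911-57576160, minus strand) the motif starts at -136.
Yap1: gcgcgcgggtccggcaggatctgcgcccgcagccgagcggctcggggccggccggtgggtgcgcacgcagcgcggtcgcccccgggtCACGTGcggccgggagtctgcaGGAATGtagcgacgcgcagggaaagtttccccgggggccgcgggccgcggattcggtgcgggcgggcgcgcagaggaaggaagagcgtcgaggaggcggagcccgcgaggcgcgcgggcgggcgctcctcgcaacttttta
Wwtr1: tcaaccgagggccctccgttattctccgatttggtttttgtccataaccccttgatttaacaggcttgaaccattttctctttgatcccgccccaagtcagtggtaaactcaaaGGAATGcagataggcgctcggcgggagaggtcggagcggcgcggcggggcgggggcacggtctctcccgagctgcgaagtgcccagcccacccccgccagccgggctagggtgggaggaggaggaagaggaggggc

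Ankrd1 and 1 of the 3 Tead3 windows held the motif at 2 places, which 1.02% of all windows do. For these and for Amotl2, 30 bases around each motif are shown. The Ankrd1 stretches lie at chr19:36120037-36120066 and chr19:36119950-36119979 on the minus strand, with motifs from -210 and -123. The Tead3 stretches lie at chr17:28350970-28350999 (from -182) and, with both motifs of another start site, at chr17:28350706-28350735 (from -123 and -114), on the minus strand. The Amotl2 stretch lies at chr9:102717727-102717756 on the plus strand, with the motif from -65. No match was found in the windows of Tead2, Amotl1 and Myof, which says only that these letters are not in those windows. The windows of Amotl1, Amotl2 and Ankrd1 lie inside the gene coordinates given below, as does a Tead3 window without a match. They precede a start that is not the outermost of the gene.
Ankrd1, upstream motif: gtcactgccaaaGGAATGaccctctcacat
Ankrd1, downstream motif: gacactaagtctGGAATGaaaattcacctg
Tead3, first start site: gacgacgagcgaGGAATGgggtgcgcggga
Tead3, second start site: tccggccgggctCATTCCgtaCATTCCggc
Amotl2: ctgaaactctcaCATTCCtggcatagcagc

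Libraries held 12838521 to 17987068 expected counts, the reads assigned to genes with multiply matching reads divided among them. Levels are given as CPM (counts scaled to the size of each library, here by TMM) where libraries are compared, and as TPM (the length-corrected share of all transcripts) where genes are compared. Trp53, knocked out in both groups, was at 212 CPM in 3H3P and 46.7 to 66.6 in the subclones. The mouse Myc gene was at 85.2 CPM in 3H3P and at 3.57 to 11.6 in the subclones, against the direction of the label, and the labels do not give the species of the introduced MYC. All directions below are therefore between libraries as labelled. Hepatocyte markers summed to 645 CPM in 3H3P, of which Apob gave 586 and Alb, the albumin gene, 3.67. In the subclones the same 6 markers summed to 0.0741 to 12.7 CPM, so the defining markers of the labelled cell type were at or near 0 there. In 3H3P Hnf4a was at 54.2 CPM, but Apoa1 was at 0, Ttr at 0.187 and Serpina1a at 0.498, so these were low there too. Summed epithelial markers were 1875 CPM in 3H3P and 77.2 to 314 in the subclones, with Epcam at 0 in all 8 libraries. Krt19 did not follow the sum, at 114 CPM in 3H3P and 3.93 to 160 in the subclones. Summed fibroblast and stellate markers were 119 CPM in 3H3P and 104 to 502 in the subclones, with Pdgfrb at 0.747 against 94.4 to 143, Dcn at 116 against at most 0.0692, and Lum and Lrat at 0. Pdgfra differed widely among the subclones, at 0.436 CPM in 3H3P and 2.13 to 349 in the subclones. All 5 lymphocyte markers were at 0. Endothelial markers summed to 1.99 CPM in 3H3P and 0.229 to 2.15 in the subclones, and macrophage markers to 14.7 and 10.4 to 31.1. Most of the macrophage sum in 3H3P was Csf1r, at 11.5 CPM, which was at 3.77 to 23.5 in the subclones. Ptprc, Adgre1 and C1qa were at 0 in 3H3P and at most at 0.192 CPM in any subclone. Mitochondrial genes took 3.18% of counts in 3H3P and 1.97% to 2.31% in the subclones. The part that these differences play in the results below was not tested. In such bulk libraries, fewer cells of a kind and less RNA per cell cannot be told apart.

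The comparison of the subclones with 3H3P asked how the transcripts of this pathway differ between these cells. Yap1, Wwtr1, Ankrd1 and Myof were lower in the subclones, while Tead2, Tead3 and Amotl1 were higher. Tead1, Tead4 and Amotl2 did not pass the test. The 3H3P level in CPM lay outside the range of the 7 subclones for all 10 members. In TPM that of Amotl2, at 95.5, lay within the subclone range of 55.6 to 108.9. Ankrd1 differed by the widest margin of the 10, with a mean 8.67-fold lower in the subclones, and Amotl1 rose 3.60-fold. Calls were made with edgeR's quasi-likelihood test at a Benjamini-Hochberg adjusted p under 0.05 over all 14634 genes. By this rule 7 of the 10 members were called, beside 19.1% of all genes tested. Because the members were chosen with earlier results of these data known, this share and the shares and medians that follow are descriptions. Of the members, 3 were called higher and 4 lower, beside 7.33% and 11.8% of all genes. A 3H3P level in CPM outside the subclone range was found for 57.4% of all genes. The median size of the log2 fold change was 1.48 over the members and 0.58 over all genes, and the median with its sign was -0.43 and 0.03. The spread in this test came from the subclones alone, and the single 3H3P library was taken to vary as they do.

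**Figure D1:**
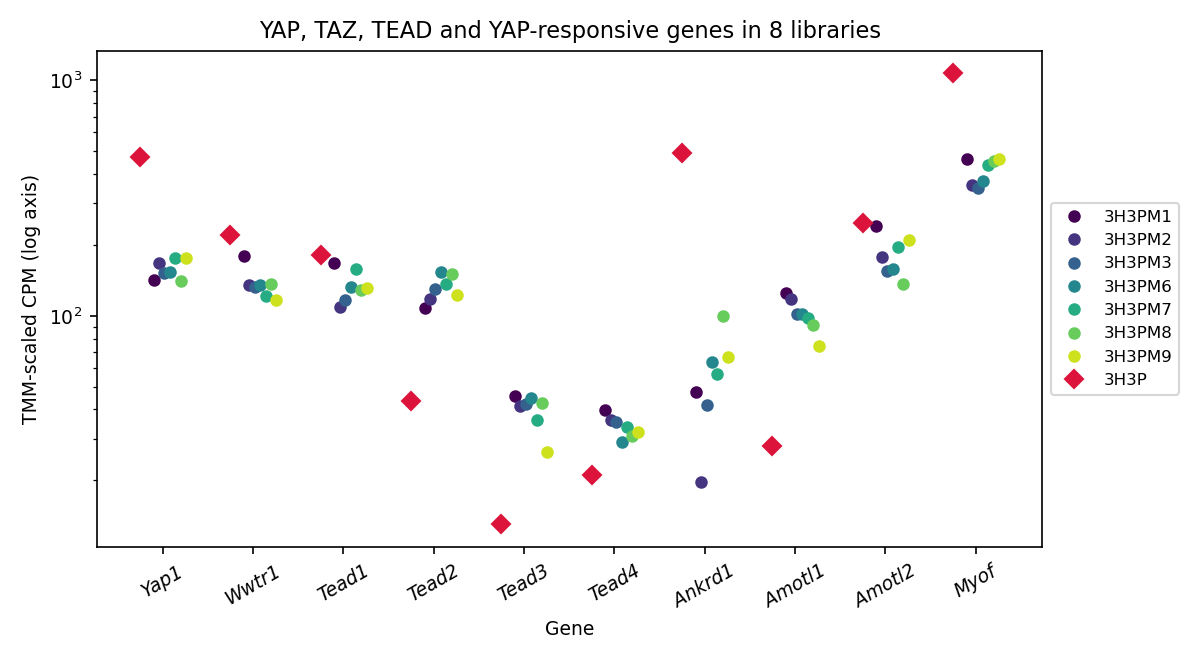
TMM-scaled CPM (log axis) of each member in 3H3P (red diamonds) and the 7 subclones (circles, coloured by subclone). The diamond lies above all circles for Yap1, Wwtr1, Tead1, Ankrd1, Amotl2 and Myof and below all of them for Tead2, Tead3, Tead4 and Amotl1.

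Yap1 (ENSMUSG00000053110.13; GRCm38 chromosome 9, 7931999 to 8004596, minus strand) encodes YAP, the coactivator that the Hippo kinases restrain. It was at 473 CPM in 3H3P and at 142, 167, 151, 153, 175, 139.8 and 176 CPM in subclones 1, 2, 3, 6, 7, 8 and 9. The subclones lay close together and far below 3H3P. The log2 fold change was -1.58 (SE 0.15; edgeR quasi-likelihood adjusted p = 0.000326), a mean 3.00-fold lower. Leaving out each subclone in turn moved it between -1.61 and -1.54. Among the subclones Yap1 varied 1.26-fold from lowest to highest. Its SD of log2 CPM, 0.14, was at percentile 9.75 of the 12151 genes whose subclone mean reached 1 CPM, and the median of those genes was 0.28.

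Wwtr1 (ENSMUSG00000027803.14; chromosome 3, 57455649 to 57575910, minus strand) encodes TAZ, the paralog of YAP. It was at 221 CPM in 3H3P, and the subclones ran from 117 to 180.2 with a median of 135. Subclone 1, at 180.2, stood above the other subclones, none of which passed 137, and still below 3H3P. The log2 fold change was -0.69 (SE 0.20; edgeR quasi-likelihood adjusted p = 0.0440). This call was not firm, as it was lost on leaving out subclone 2, 3, 6, 7, 8 or 9 (adjusted p 0.0572 to 0.0778), and it was at 0.00870 without subclone 1. It was also lost with library-size scaling (0.0661), without the filter (0.0744) and with limma on TPM (0.0762 and 0.0756).

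Per length, Yap1 was at 171 TPM and Wwtr1 at 67.5 TPM in 3H3P. In the subclones Yap1 was at 59.1 ± 6.96 TPM and Wwtr1 at 44.1 ± 6.85 TPM (SD, n = 7). Yap1 thus made up 71.6% of the summed coactivator TPM in 3H3P and 57.3% ± 5.40 in the subclones, with a range of 47.9% to 63.8%. In subclone 1, the lowest, Wwtr1 exceeded Yap1, and in the other 6 Yap1 exceeded Wwtr1. The sum of both fell outside the subclone range, at 238 TPM in 3H3P and 94.0 to 113 TPM in the subclones. With 1 library against 7, the exact two-sided permutation p for the share and for the sum was 0.125, the smallest that this design allows.

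Yap1 was not alone on its chromosome in being lower. All the tested genes in the first 10 Mb of chromosome 9 numbered 23, from Alkbh8, which starts at 3.34 Mb, to Arhgap42, which ends at 9.24 Mb. Of these, 22 were lower in all 7 subclones than in 3H3P, and 17 were called lower, where 11.8% of all genes were called lower. Over all genes, 3H3P lay outside the subclone range, above or below it, for 57.4%. The share above it alone is not given here. Of the 23, 5 (Pdgfd, Mmp3, Mmp7, Mmp10 and Mmp27) did not reach 1 CPM in 4 of the 8 libraries, so that their high level in 3H3P could carry them through the filter. Without them, 17 of 18 were lower in all 7 subclones and 15 were called lower, with a median log2 fold change of -2.18, where 9.64% of all genes held to the same level were called lower. This stretch was looked at after the value of Yap1 had been seen. The median log2 fold change of all 23 was -2.30, and -2.31 without Yap1. It was the lowest of the 257 stretches of 10 Mb with 10 or more tested genes, the next being at -1.09. By subclone, the median log2 difference over these genes ran from -2.54 in subclone 2 to -2.04 in subclone 7, so all 7 subclones showed it.

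Within the stretch Yap1 fell less than most of its called neighbours, as 12 fell more, Pdgfd and Mmp27 among them, and 4 less. Birc2 and Birc3, which encode inhibitors of apoptosis and lie beside Yap1, had log2 fold changes of -2.31 (SE 0.19, adjusted p = 0.000166 by edgeR) and -3.72 (SE 0.33, 0.000256). Birc2 was at 185 CPM in 3H3P and 30.3 to 44.8 in the subclones. Birc3 was at 209.6 CPM and 9.99 to 24.2. Tmem123, a membrane protein gene, had a log2 fold change of -2.19, Msantd4 of -2.32 and the cilium motor gene Dync2h1 of -2.20, and all 3 passed. The inflammatory caspase genes Casp1, Casp4 and Casp12, which lie between Msantd4 and Dync2h1, were at -4.45, -4.30 and -4.16. Dcun1d5, at -1.29, and Cwf19l2, at -1.44, fell less than Yap1. The 1 gene that was not lower in the subclones was Cfap300, at 0.16 (SE 0.73). In mouse liver tumours the stretch with Yap1 and Birc2 is known as a site of recurrent DNA amplification. DNA copy number was not measured in these libraries.

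**Figure D2:**
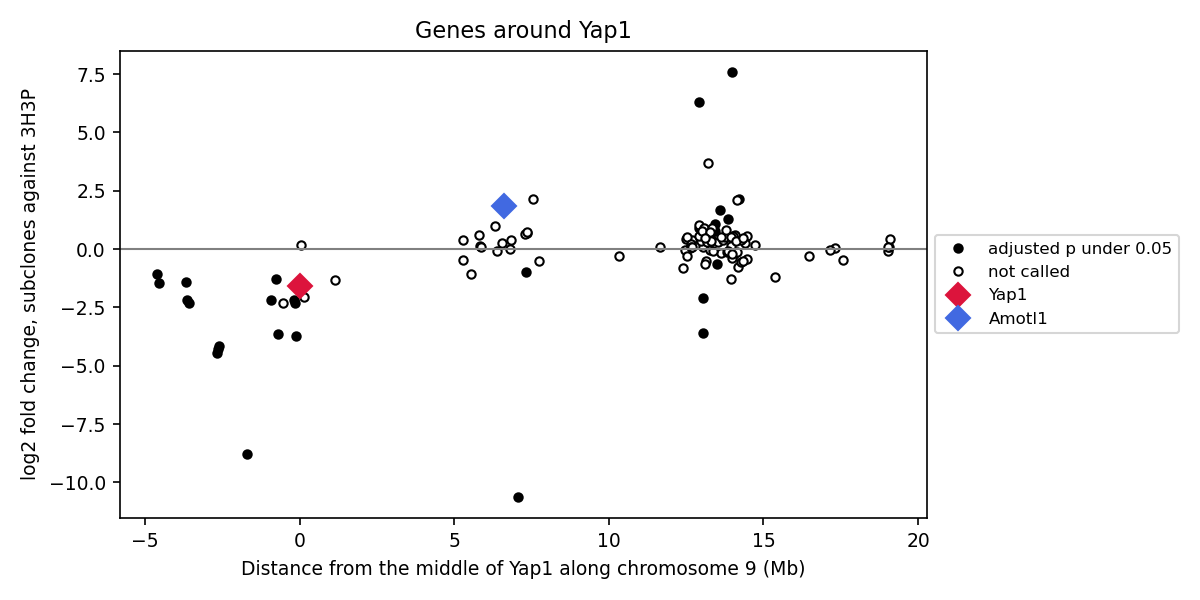
Log2 fold change (subclones against 3H3P) of the 117 tested genes averaging at least 1 CPM in the first 30 Mb of chromosome 9, by distance in Mb from the middle of Yap1; filled points have an adjusted p under 0.05. Yap1 (red) sits among genes below 0, and Amotl1 (blue) lies further along among genes on both sides of 0.

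Beyond this stretch the median changed sign, with genes on both sides of 0. No tested gene lay between Arhgap42 and Jrkl, which starts at 13.2 Mb, and the 26 tested genes of the next 10 Mb, with Amotl1 among them, had a median of 0.32. Tested genes within 1 Mb of each member were also counted, a narrower window than the 10 Mb above. The counts below and above 0 stand beside a median log2 fold change of 0.03 over all genes. Around Yap1, 11 of 12 neighbours were below 0 and 7 were called lower. These 12 include Mmp3, Mmp7, Mmp10 and Mmp27, named above for the filter. Around Wwtr1, 5 of 9 neighbours were below 0, around Ankrd1 4 of 10, around Myof 6 of 16 and around Tead2 46 of 82. Around Tead1, 6 of 6 neighbours were below 0, of which 2 were called lower (11.8% of all genes were). Around Tead3, 30 of 39 were above 0 with a median of 0.56, and 5 were called higher (7.33% of all genes were). Around Tead4, 12 of 22 were above 0, around Amotl1 13 of 18 and around Amotl2 3 of 11. In the 10-Mb stretch with Ankrd1 and Myof, 13 of 55 genes were called lower and 0 higher, members included. Over all genes, 11.8% and 7.33% were. These counts were 16 and 2 of 62 for Tead1, 14 and 4 of 124 for Tead2, and 5 and 26 of 196 for Tead3. For Wwtr1 they were 5 and 7 of 56, and for Tead4 6 and 8 of 96. For Amotl2 they were 16 and 5 of 123, and for Amotl1 2 and 2 of 26.

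The TEAD genes, whose products carry YAP and TAZ to DNA, did not move as one. Tead2 and Tead3 rose, and Tead1 and Tead4 did not pass the test, with Tead1 below and Tead4 above 3H3P in all 7 subclones. Tead2 (ENSMUSG00000030796.17; chromosome 7, 45215753 to 45233644, plus strand), known for its activity in the early mouse embryo, was at 43.6 CPM in 3H3P and 108, 117, 129.9, 153, 137, 150.3 and 122 CPM in subclones 1, 2, 3, 6, 7, 8 and 9. Every subclone lay well above 3H3P, and the groups did not overlap. In the fit it rose by 1.59 on the log2 scale (SE 0.24; edgeR quasi-likelihood adjusted p = 0.00250). Tead3 (ENSMUSG00000002249.21; chromosome 17, 28331671 to 28350817, minus strand) was at 13.0 CPM in 3H3P and ran from 26.4 to 45.5 in the subclones, with a median of 42.3. Subclone 9 was the lowest of the 7, still above 3H3P. Its log2 fold change was 1.62 (SE 0.32; adjusted p = 0.00864).

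Tead1 (ENSMUSG00000055320.17; chromosome 7, 112679318 to 112906807, plus strand), the TEAD gene found in most adult tissues, was at 180.3 CPM in 3H3P and 109 to 167 in the subclones, with a median of 131. Subclones 1 and 7 came closest to 3H3P. Its log2 fold change of -0.42 (SE 0.22) missed the threshold (edgeR quasi-likelihood adjusted p = 0.213). Tead4 (ENSMUSG00000030353.15; chromosome 6, 128224288 to 128300823, minus strand) was at 21.2 CPM in 3H3P and 29.2 to 40.0 in the subclones, with a median of 33.6. Its log2 fold change was 0.68 (SE 0.22; adjusted p = 0.0582), and it passed with DESeq2 (0.0224) and with library-size scaling (0.0447).

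Per length, Tead2 was the most abundant TEAD transcript in all 8 libraries. It made up 49.3% of the summed TEAD TPM in 3H3P and 70.3% ± 4.10 (SD, n = 7) in the subclones, with a range of 62.3% to 74.7%. Tead1 went the other way, from 33.7% in 3H3P to 11.2% ± 2.12, range 9.19% to 15.0%. Tead3 took 6.93% in 3H3P and 7.69% to 12.7% in the subclones. Tead4 took 10.0% in 3H3P and 5.73% to 9.99% in the subclones, so that 3H3P and subclone 1 were nearly level. The effective length deposited for Tead1, by which TPM divides, was 6477 bases in 3H3P and 6795 to 7713 bases in the subclones, which lowers the subclones' Tead1 TPM relative to their counts. For Tead2 it was 1033 to 1216 bases over all libraries. In counts Tead1 exceeded Tead2 in 3H3P (2898 against 701) and in subclones 1, 7 and 9, so the order per length rests on these lengths.

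The balance between coactivator and TEAD transcripts lay on opposite sides of 1 in the groups. Yap1 and Wwtr1 together reached 2.12 times the summed TEAD TPM in 3H3P and 0.434 ± 0.0590 times (SD, n = 7; range 0.351 to 0.496) in the subclones. The ratio was 4.87 times higher in 3H3P than the subclone mean, with fewer coactivator transcripts and more TEAD transcripts in every subclone. TPM divides by effective length, which was 1033 to 1216 bases for Tead2 and 3785 to 3886 for Yap1. Tead2 therefore weighs more here than in counts, and the size of the ratio rests on these lengths. Summed TEAD TPM was 113 in 3H3P and 240.5 ± 24.5 in the subclones, range 214 to 278. The exact two-sided permutation p was 0.125 for this ratio, for the TEAD sum and for the shares of Tead1, Tead2 and Tead3, the smallest possible here, and 0.375 for Tead4.

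**Figure D3:**
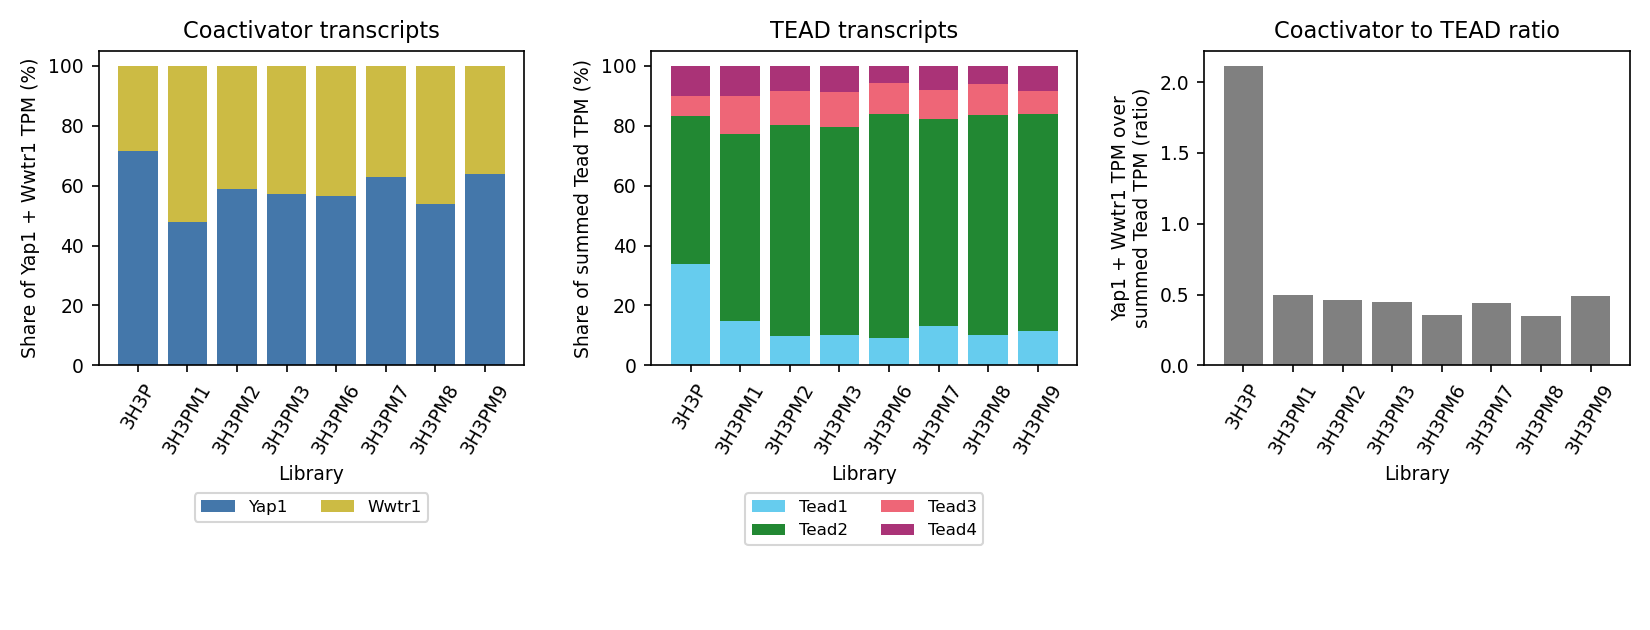
Left, share of Yap1 and Wwtr1 in their summed TPM; middle, share of each Tead gene in the summed Tead TPM; right, summed Yap1 and Wwtr1 TPM divided by the summed Tead TPM, for each of the 8 libraries. The ratio is 2.12 in 3H3P and 0.351 to 0.496 in the subclones, and the Tead2 share is lowest and the Tead1 share highest in 3H3P.

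Of the YAP-responsive genes, Ankrd1 and Myof fell and Amotl2 did not pass the test. Ankrd1 (ENSMUSG00000024803.8; chromosome 19, 36111961 to 36120099, minus strand) encodes an ankyrin-repeat protein of muscle sarcomere and nucleus and is among the genes most often read as a YAP response. It was at 490.0 CPM in 3H3P and at 47.5, 19.7, 41.8, 63.4, 56.8, 99.6 and 66.7 CPM in subclones 1, 2, 3, 6, 7, 8 and 9. All 7 were far below 3H3P, with subclone 2 lowest and subclone 8 highest. The log2 fold change was -3.12 (SE 0.48; edgeR quasi-likelihood adjusted p = 0.00289), between -3.30 and -2.96 with each subclone left out. Its promoter stretches, printed above, hold the TEAD motif at 2 places. So does 1 window of Tead3, while the window of Myof holds none. Any part of the motif in the changes of these genes was not tested.

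Myof (ENSMUSG00000048612.16; chromosome 19, 37899036 to 38043577, minus strand) encodes myoferlin, a membrane protein of vesicle fusion and repair that belongs to a widely used YAP and TAZ target signature. It was at 1070.0 CPM in 3H3P and at 349.8 to 465 in the subclones, with a median of 435. The subclones were within 1.33-fold of one another and none came near 3H3P. Fitted over all libraries, its log2 fold change was -1.37 (SE 0.17; edgeR quasi-likelihood adjusted p = 0.00120).

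Amotl2 (ENSMUSG00000032531.15; chromosome 9, 102716672 to 102733418, plus strand) encodes an angiomotin-like junction protein that binds YAP and is itself a YAP target. It was at 247 CPM in 3H3P and 137 to 240.0 in the subclones, with a median of 177. Subclone 1, at 240.0, was nearly level with 3H3P, and on TPM it was higher, at 109 against 95.5. The log2 fold change was -0.44 (SE 0.26; edgeR quasi-likelihood adjusted p = 0.270).

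Its paralog Amotl1 (ENSMUSG00000013076.17; chromosome 9, 14541966 to 14645056, minus strand) encodes another angiomotin-like protein that binds YAP, and it rose. It was at 28.1 CPM in 3H3P and 74.2 to 125 in the subclones, with a median of 102. Subclone 1 was highest and subclone 9 lowest, and no subclone came near 3H3P. Its rise was 1.85 on the log2 scale (SE 0.29; edgeR quasi-likelihood adjusted p = 0.00325). The TPM ratio of Amotl1 to Amotl2 was 0.0500 in 3H3P and 0.241 ± 0.0544 (SD, n = 7) in the subclones, range 0.147 to 0.290 (exact permutation p = 0.125, the smallest possible), so Amotl2 remained the more abundant of the pair in all 8 libraries.

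**Figure D4:**
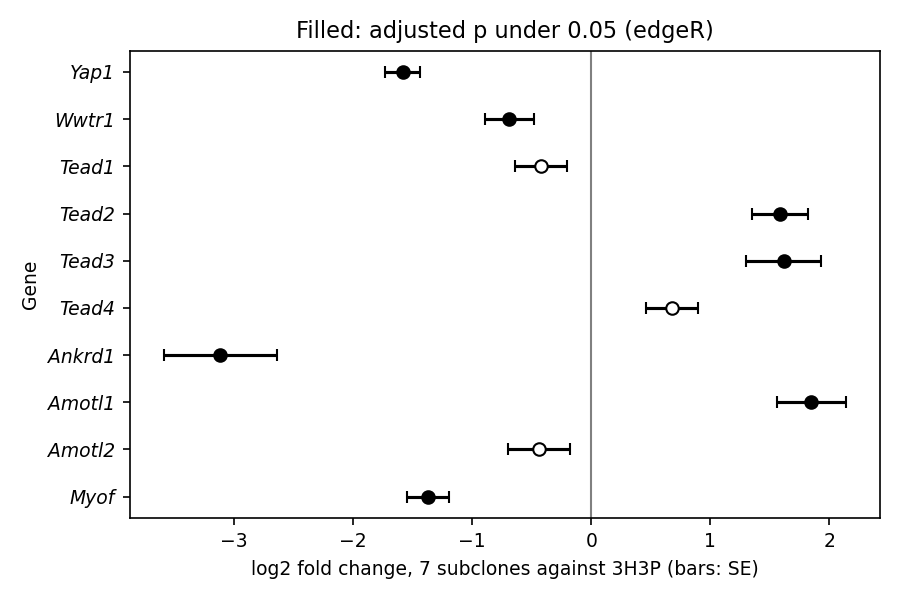
Log2 fold change of each member, 7 subclones against 3H3P, with its SE; filled points have an edgeR adjusted p under 0.05. Values run from -3.12 for Ankrd1 to 1.85 for Amotl1, with Tead1, Tead4 and Amotl2 open.

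The order of the members by TPM differed between the groups. In 3H3P it was Ankrd1 (438 TPM), Myof (337), Yap1 (171), Amotl2 (95.5), Wwtr1 (67.5), Tead2 (55.5), Tead1 (38.0), Tead4 (11.3), Tead3 (7.80) and Amotl1 (4.77). Over the subclones it was Tead2 (mean 169.5 ± 24.5 SD), Myof (143 ± 19.0), Amotl2 (77.0 ± 17.8), Yap1 (59.1 ± 6.96), Ankrd1 (53.1 ± 23.0), Wwtr1 (44.1 ± 6.85), Tead1 (26.8 ± 4.79), Tead3 (25.2 ± 4.23), Tead4 (18.9 ± 2.36) and Amotl1 (17.9 ± 2.99). The ranges of neighbours in the subclone order overlapped except at 2 steps. Myof was at 121 TPM or more and Amotl2 at 109 or less, and Wwtr1 was at 38.7 or more and Tead1 at 34.2 or less.

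Among the subclones, Ankrd1 varied far more than the other members. Its SD of log2 CPM was 0.73, at percentile 87.9 of all ranked genes, with a 5.06-fold range. The other 9 members had an SD under 0.3, with Amotl2 at 0.28 and Tead3 at 0.27 next in order. Some of these values rest on 1 library. Without subclone 2 the SD of Ankrd1 was 0.44, without subclone 9 that of Tead3 was 0.12, and without subclone 1 that of Wwtr1 fell from 0.20 to 0.094. The genes whose log2 CPM over the 7 subclones was most like that of Ankrd1 were Ccl2, a chemokine that draws monocytes (Pearson r = 0.99), Ecscr (0.99) and Xdh, xanthine dehydrogenase (0.98). Ccl2 ran from 17.6 CPM in subclone 2 to 141 in subclone 8, the same extremes as Ankrd1. Those most like Amotl2 were Parp11, Zfp518a and Enc1 (each 0.99), and among those most like Tead3 were Il11ra1, a subunit of the interleukin 11 receptor, and Fcf1 (each 0.96). They were picked as the highest of 9791 genes over 7 points, of which 208 exceeded an r of 0.9 with Ankrd1, 84 with Amotl2 and 35 with Tead3, so the values are descriptions. Il11ra1 and Fcf1 were, like Tead3, lowest in subclone 9.

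Of 32 genes of the Hippo cascade and its regulators, 29 were tested. Of these, 1 was called higher (7.33% of all genes were), 6 lower (11.8%) and 22 not, and their median log2 fold change was -0.02, beside 0.03 over all genes. The kinase genes Lats1 (-0.18, SE 0.25) and Lats2 (0.42, SE 0.23) and the upstream tumour suppressor Nf2 (-0.24, SE 0.22) did not pass. Sav1, the scaffold of the MST kinases, was the 1 that rose, from 75.0 CPM in 3H3P to 162 to 212 in the subclones (log2 fold change 1.29, adjusted p = 0.00283 by edgeR).

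The 6 that fell were of several kinds. Wwc1, encoding the upstream activator KIBRA, was at 504 CPM in 3H3P and 215 to 302 in the subclones (log2 fold change -0.95, adjusted p = 0.00694 by edgeR). Mob1b, a cofactor of the LATS kinases (-0.78, 0.0275), and Taok3, a kinase of the TAO family (-1.77, 0.00431), also fell. Limd1, a LIM protein that restrains LATS (-1.13, 0.00751), and the large cadherin gene Fat1 (-1.07, 0.0318) fell as well. The Fat1 call was lost without subclone 6 (0.0527) and with limma on TPM (0.115 and 0.111), and that of Mob1b with limma on TPM (0.220 in both). Vgll3, which encodes another cofactor that binds TEAD proteins, was at 74.5 CPM in 3H3P and 0.128 to 5.73 in the subclones (-5.61, SE 1.03, 0.00694).

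Of the 19 other genes of the YAP and TAZ target signature, all were tested, 2 were called higher (7.33% of all genes were), 3 lower (11.8%) and 14 not, with a median log2 fold change of -0.03. Igfbp3, 1 of the 3 called lower, passed the filter on low counts only through 3H3P. Cyr61 (now Ccn1), a matrix protein gene often used as a YAP readout, was at 241 CPM in 3H3P and 97.9 to 464 in the subclones. Its log2 fold change was 0.08 (SE 0.58; adjusted p = 0.936 by edgeR), and its sign changed with limma-voom (-0.044) and without subclone 6 (-0.13). Ctgf (now Ccn2), its relative, was at 14.5 CPM in 3H3P and 9.41 to 47.4 in the subclones (0.69, SE 0.70; 0.524). For both, 3H3P lay within the range of the subclones.

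The signature genes that passed went both ways. Axl, a receptor tyrosine kinase gene, was at 1079 CPM in 3H3P and 258 to 462 in the subclones (log2 fold change -1.64, SE 0.23, adjusted p = 0.00209 by edgeR). Igfbp3, encoding a binding protein of insulin-like growth factors, had 174 counts in 3H3P and 2 over all 7 subclones, a depth-corrected ratio of 579 with a 95% exact binomial interval of 158 to 4815 that covers counting error only. Crim1 fell by 0.64 on the log2 scale (0.0308), a call lost without subclone 3 (0.0518) or 6 (0.0538), without the filter (0.0568) and with limma on TPM (0.0731 and 0.0725). Ccdc80, a matrix protein gene, rose from 11.6 CPM in 3H3P to 155 to 715 in the subclones (4.85, SE 1.03, 0.0123). Foxf2, a mesenchymal transcription factor gene, rose from 25.3 to 60.6 to 213 CPM (2.35, SE 0.65, 0.0353), a call lost without subclone 3 (0.0594), 7 (0.0513) or 9 (0.0541).

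Among further genes often read as YAP responses, Thbs1, encoding thrombospondin, rose from 204 CPM in 3H3P to 876 to 1511 in the subclones (log2 fold change 2.45, SE 0.36, adjusted p = 0.00232 by edgeR). Areg, Ereg, Edn1 and Birc5 did not pass.

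**Figure D5:**
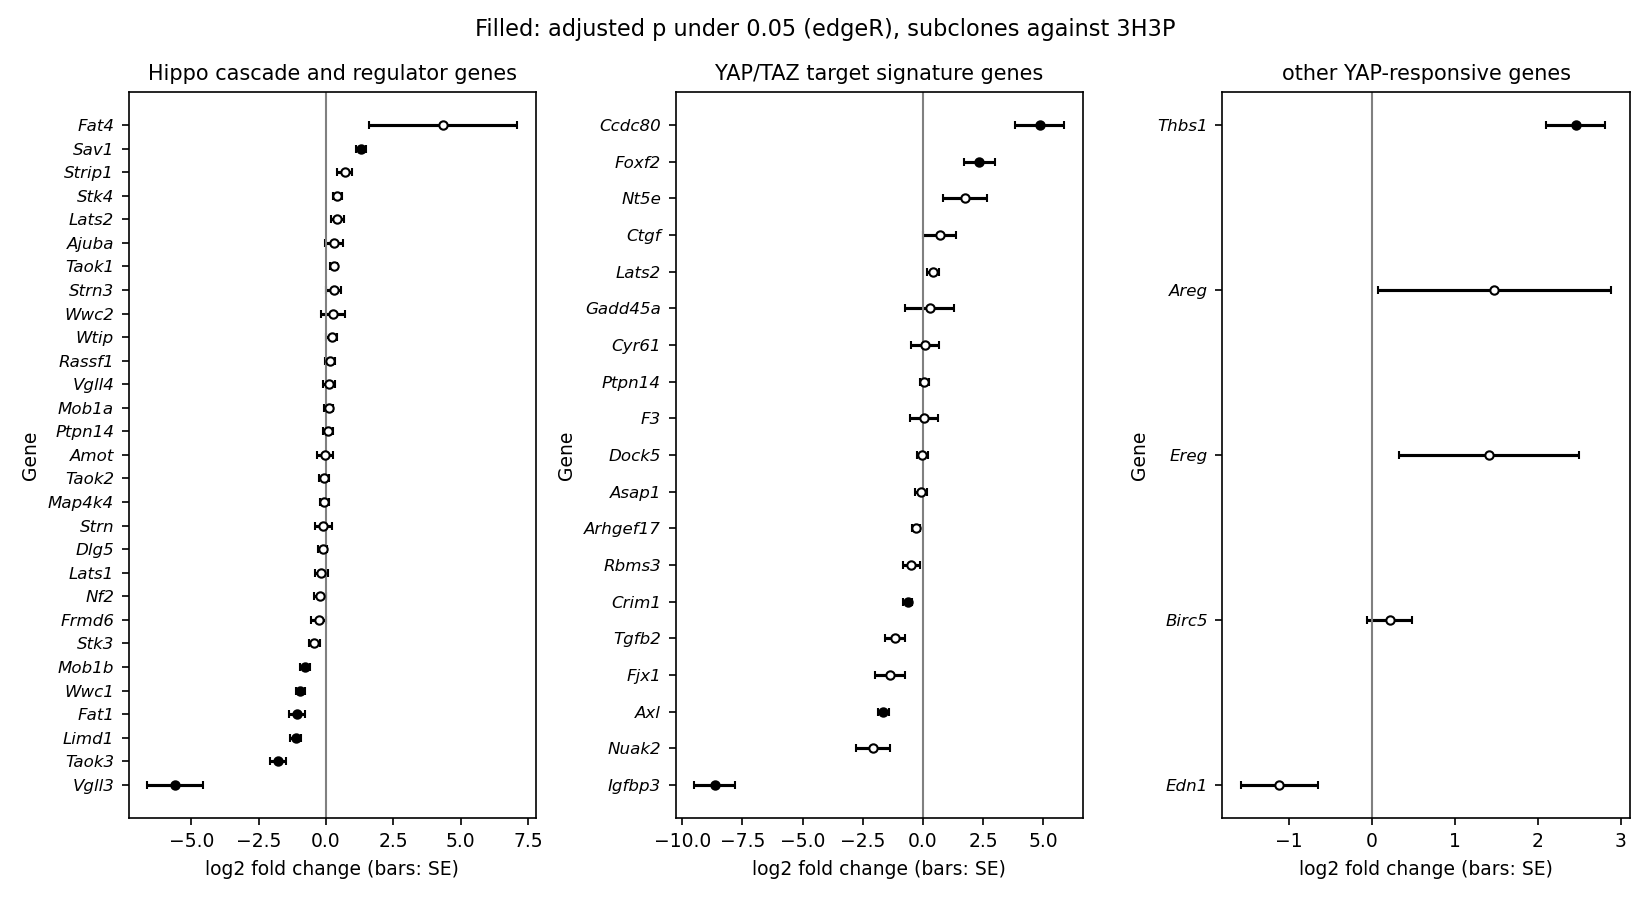
Log2 fold change with SE, 7 subclones against 3H3P, of the tested genes of the Hippo cascade and its regulators (29), the target signature without members (19) and other YAP-responsive genes; filled points have an edgeR adjusted p under 0.05. In the first panel 22 of 29 points are open and in the second 14 of 19, and Lats2 and Ptpn14 appear in both.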

How the data were processed

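The expected count, TPM and FPKM deposited by the authors are RSEM gene estimates, per the file headers, with gene symbols in the files and transcript lengths in bases. The tools named per the submitters' processing notes are STAR, RSEM, FastQC and DESeq2, with the GRCm38 (mm10) build; their versions and the use of strand in counting are not given in the sources used. FPKM was not used here. Expected counts were rounded and fitted over all 8 libraries with edgeR 4.0.16 (R 4.3.3; filterByExpr, TMM, glmQLFit and glmQLFTest), with Benjamini-Hochberg adjustment over 14634 genes. The SE is the log2 fold change over the square root of F. The spread has 6 residual degrees of freedom from 7 isolates of 1 library each, and p-values rest on how those isolates vary. DESeq2 1.42.0, limma 3.58.1, other scalings and filters, and leaving out each subclone were alternatives. SD of log2 CPM used a prior count of 2. Coordinates came from GENCODE vM21 (GRCm38), matched by stable identifier for 14626 genes. Scripts were tested on simulated data. Named were all members, each called gene of the 3 pathway lists, Lats1, Lats2, Nf2, Ccn1 and Ccn2, and the 3 genes most like each of the 3 most variable members at a mean CPM of 5 or more; the neighbours of Yap1 were named after their values were seen. Some genes that this rule or the lists include are not reported here. Members and lists were chosen with earlier results of these data known.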

Additional observations from a re-analysis of the deposited data

Results flagged for a closer look

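Of 33 groups of subclone values tested for a subclone that stands apart from the other 6 (Dixon's ratio of gap to range above 0.568), 3 had one. Chance marks about 5% of such groups. Wwtr1 was highest in subclone 1, at 180.2 CPM, with the other subclones at 117 to 137 (ratio 0.690). Vgll3 was highest in subclone 7, at 5.73 CPM, with the others at 0.128 to 2.25 (ratio 0.621). That ratio was taken on CPM and not on log2 CPM. Vgll3 was low and varied widely among the subclones (SD of log2 CPM 1.57), so the 5% rate may not hold for it. Igfbp3 was highest in subclone 6, at 0.132 CPM, with the others at 0. This rests on 2 counts, both in subclone 6, so the ratio of gap to range was 1 by construction and the gene should be left out when the 3 are read against chance.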

How the results depend on the processing

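Of the alternatives for the 28 named genes, 392 kept direction and call, 23 lost the call, 2 gained it (both Tead4) and 2 changed sign (Cyr61, -0.044 with limma-voom, and -0.13 without subclone 6 to 0.23 without subclone 2). Calls of Yap1, Tead2, Tead3, Ankrd1, Amotl1 and Myof held in every alternative run. Genes called higher numbered 1689 with DESeq2 against 1072, and 669 to 1185 with each subclone left out, lowest without subclone 3. Genes called lower numbered 1727, 1322 to 1800 with each subclone left out, 2239 with limma-voom and 1179 with the stricter filter. The share of calls that were higher was 38.3%, 29.97% with limma-voom, 49.3% with DESeq2 and 50.3% with limma on log2(TPM + 0.1), which called 2 Hippo genes higher in place of 1. Signature genes called higher numbered 1 to 2, with 1 left without subclone 3, 7 or 9. Library-size scaling shifted the median log2 fold change of all genes to 0.10 and no filter to 0.21. The stricter filter left out Igfbp3. The cause of these changes was not tested. No paired analysis was possible because 3H3P has 1 library. The smallest count of a member was 209, for Tead3 in 3H3P. The lack of a replicate of 3H3P limits every comparison.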
